A study of Mus musculus with 6 samples.

Results

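Genes that carry a cell through mitosis were examined in whole hearts of mice that were floxed for PHD2 and PHD3, with and without Cre recombinase. The 51 genes were chosen by name, as the mitotic kinases and cyclins, the spindle checkpoint, the kinetochore, the spindle motors, the cytokinesis machinery and chromosome structure, and they were found on the array through the RefSeq accession that each probe carries. All 51 had at least 1 probe, 69 probes in all, among 20145 genes with a symbol and a probe. Of these, 45 were well above background in all 3 hearts of 1 group or both and were tested, and 6 were not. In the hearts labelled as lacking PHD2 and PHD3, 30 of the 32 that could be measured in every heart were higher, with a median difference over the 32 of 2.75 on the log2 scale or 6.73-fold.

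All 6 hearts came from 8-week-old C57/B6 mice carrying floxed PHD2 and PHD3 alleles. The 3 control mice had the genotype PHD2/3f/f; Cre-/- and the other 3 had PHD2/3f/f; Cre+/-; the latter are named KO-labelled hearts here. The enzymes PHD2 and PHD3, encoded by Egln1 and Egln3, are oxygen-dependent prolyl hydroxylases that mark hypoxia-inducible factors for destruction. The labels call the hearts biological replicates. They leave unnamed the promoter that drives Cre, any inducer, the exons that were deleted and the sex. The RNA protocol reads as a silica column kit for hearts in one field and as a kit for blood with globin removal in another, and which applied was not resolved. Each heart was read on 1 Agilent 1-colour array, all on 1 slide and in 1 scan. The control arrays filled 1 row of that slide and the KO-labelled arrays another, so that array position and group cannot be told apart.

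Mitosis runs through a fixed order of machines. CDK1 with cyclin B starts it, Aurora B and its partners in the chromosomal passenger complex correct faulty attachments, the NDC80 complex of the kinetochore holds the microtubules, and the spindle checkpoint keeps CDC20 from switching on the anaphase-promoting complex until every chromosome is attached. Centralspindlin, PRC1 and ECT2 then set up the cleavage furrow. Most adult cardiomyocytes have left the cell cycle, while fibroblasts, endothelial cells and macrophages of the heart can divide. In bulk tissue, more cells of a type and more RNA per cell cannot be told apart.

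Values below are log2 of the background-subtracted signal minus the 75th percentile of the same array, so that 0 is the brightness of the array's upper quartile, and each probe is compared only with itself across hearts. Differences are KO-labelled minus control with the standard error (SE) of the fit, n = 3 hearts per group. A difference is called at a Benjamini-Hochberg adjusted p of 0.05 or less from limma, adjusted over all 20012 genes and unnamed features tested. An exact permutation test of 3 hearts against 3 cannot go below 0.1, so these calls rest on a variance pooled across genes.

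The arrays differed widely between the groups. Across all 20012, 3217 were higher (16.1%) and 4602 were lower (23.0%) in KO-labelled hearts, with a median difference of -0.11. Cyclic loess scaling gave 4487 higher and 3624 lower and moved that median by 0.13, and levelling on the spike-in probes gave 3586 higher and 2524 lower and moved it by 0.23. The number called fell to 3899 without control replicate 1, 4024 without control replicate 3 and 5115 without KO replicate 3, against 7819 with all hearts. Egln1 fell by 1.23 ± 0.21 (SE, adjusted p = 0.00654). Egln3 rose by 1.98 ± 0.17 (SE, adjusted p = 0.00165), which goes against the label at face value; whether its probe lies within the deleted part is unknown. All 8 cardiomyocyte markers, such as Myh6 and Tnnt2, were well above background in every heart, as the tissue label says.

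Among the mitosis genes, 32 were well above background on all 6 arrays and so were measured in both groups. In KO-labelled hearts 30 of these 32 were higher, against 15.0% of all features measured on all 6 arrays, as stated above. With no filter on dim probes, so that every one of the 51 was tested, 43 were called higher and none was called lower, against 5.14% called higher of all features under that setting. The main filter tested 45 and gave the same count of 43 higher, against 16.1% of all. Of those 45, 13 entered only because they were bright in the KO-labelled group and had to differ, so they add no support. In 44 of the 45 the lowest KO-labelled heart lay above the highest control, against 22.7% of all features. In 1, Cenpa, the order was the reverse. The 44 include all 13 of the genes that had to differ, which add no support here either. Of the 32 measured in every heart, the 31 with a higher mean were all free of overlap. The median difference of the 45 was 2.73. Of the 30 called genes measured in every heart, 28 were higher by at least 2-fold and 24 by at least 4-fold, from 1.57-fold for Spc24 to 9.98-fold for Tpx2. Folds of the 13 rest on control signals near background. With normexp background correction, run on median signals with an offset, the difference of each of the 13 was smaller by over 1.5 times (0.32 to 1.57), as were those of 5 of the 31 measured genes with a higher mean. With the deposited value table this held for 4 of 12 of the dim genes (Bub1, Nuf2, Kif4 and Top2a) and for 0 of those 31.

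**Figure D1:**
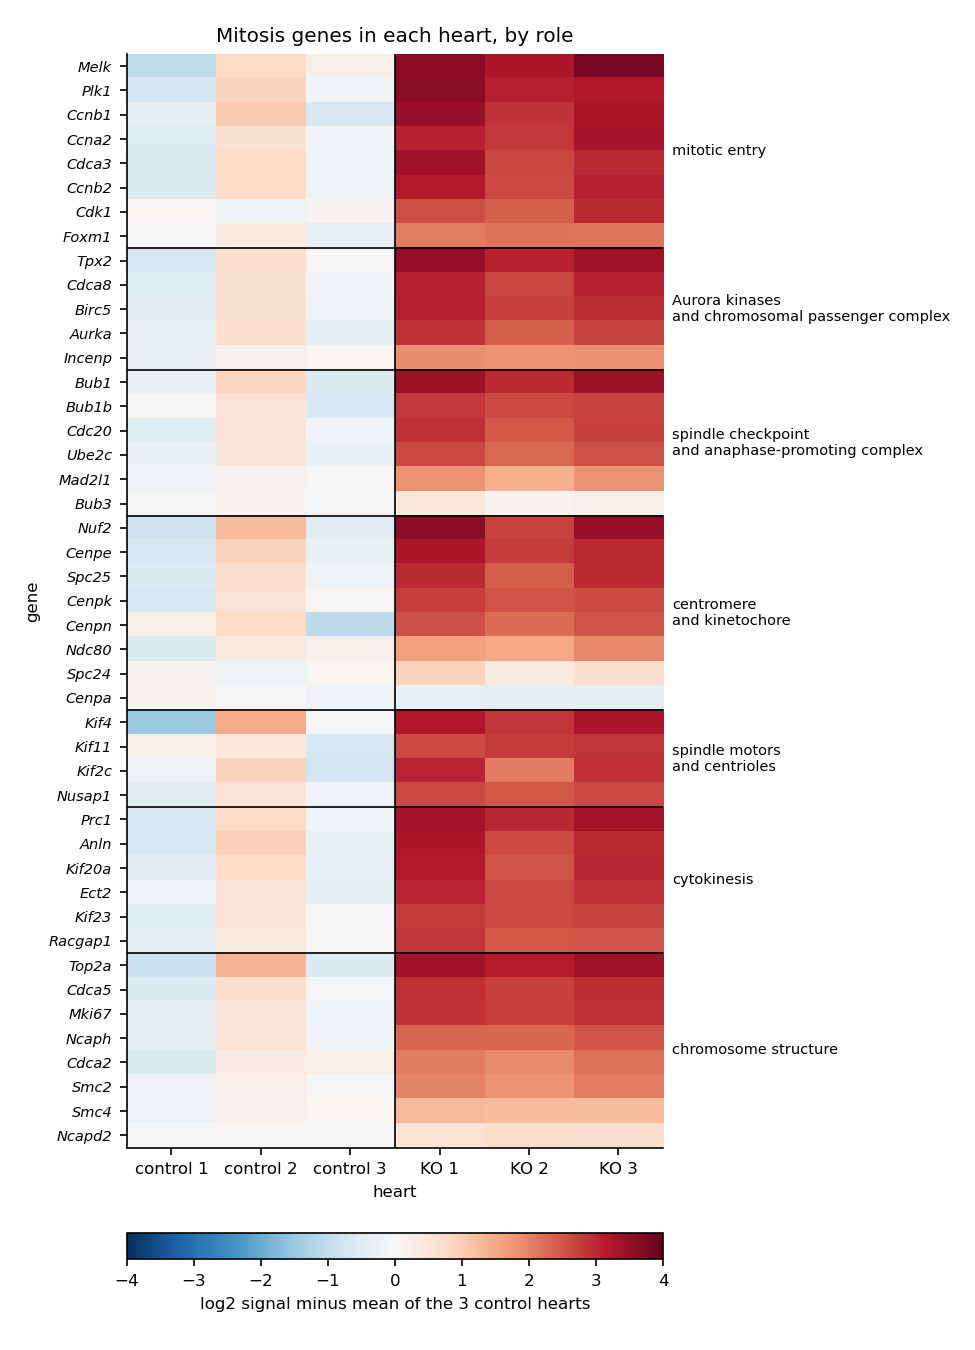
Log2 signal of the 45 tested mitosis genes in each heart, as the difference from the mean of the 3 control hearts (colour scale -4 to 4), with genes ordered by role and then by difference. Control 2 is warmer than the other controls in nearly every gene, and every KO-labelled heart is warm in all genes but Cenpa, which is cool. Bub3, Spc24, Cenpa and Ncapd2 are pale.

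The hearts did not spread evenly. The median signal of the 45 genes was -1.49, -0.53 and -1.55 in the control hearts and 1.71, 1.24 and 1.54 in the KO-labelled hearts. Control 2 was the highest control in 42 of 45 genes, and KO 2 was the lowest KO-labelled heart in 40. The SD between control hearts had a median of 0.58 over these genes, against 0.18 over all features, while the SD between KO-labelled hearts was 0.20 against 0.19. Without control replicate 2, 42 of 45 were higher with a median of 3.03, and without KO replicate 2, 44 of 46 were higher with a median of 2.82.

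Markers of other cells also differed between the groups, though not every marker of a list did. The summed signal of 8 fibroblast markers, relative to the 75th percentile, was 460.5, 757.7 and 412.5 in the control hearts. In the KO-labelled hearts it was 1119, 1006 and 1064. Of the 8, 5 were called higher, against 16.1% of all features. The collagens Col1a1 (2.64), Col3a1 (2.16) and Col1a2 (2.02) rose most, while Pdgfra (0.34), Ddr2 (0.08) and Dcn (-0.23) were not called. For 8 macrophage markers the sum was 75.99, 123.1 and 90.38 against 240.6, 145.7 and 204.7, again with 5 of 8 called higher. Control 2, the control with the highest mitotic signal, thus had the highest fibroblast and macrophage sums of the controls. KO 2 had the lowest of both sums among KO-labelled hearts. Single fibroblast markers did not all have that order. The collagens and Tcf21 were lowest in KO 2 among KO-labelled hearts, but Pdgfra, Dcn, Lum and Ddr2 were lowest in KO 1. All 8 cardiomyocyte markers were called lower, against 23.0% of all features, with sums of 9707 to 13400 in control and 5943 to 7716 in KO-labelled hearts. None of 8 endothelial markers was called (229.7 to 251.5 against 217.9 to 277.8). In each of these 4 lists every marker with a probe was well above background on all 6 arrays, so none was at 0. The part of these cell types in the mitotic signal was not tested.

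Single hearts stood apart in markers of other tissues. The 6 mesothelial markers summed to 46.15 in control 2 and to 6.921 and 8.522 in the other controls, with 16.4 to 24.31 in KO-labelled hearts. The 7 thymocyte markers summed to 11.45 in KO 2 against 1.45 and 1.183 in the other KO-labelled hearts and 1.484 to 1.797 in controls, and the 7 T cell markers to 20.69 in KO 2 against 4.305 to 5.777 in the other 5 hearts. KO 2 was also the KO-labelled heart with the lowest mitotic signal, and the median difference of the mitosis genes without it was 2.82, as given above.

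**Figure D2:**
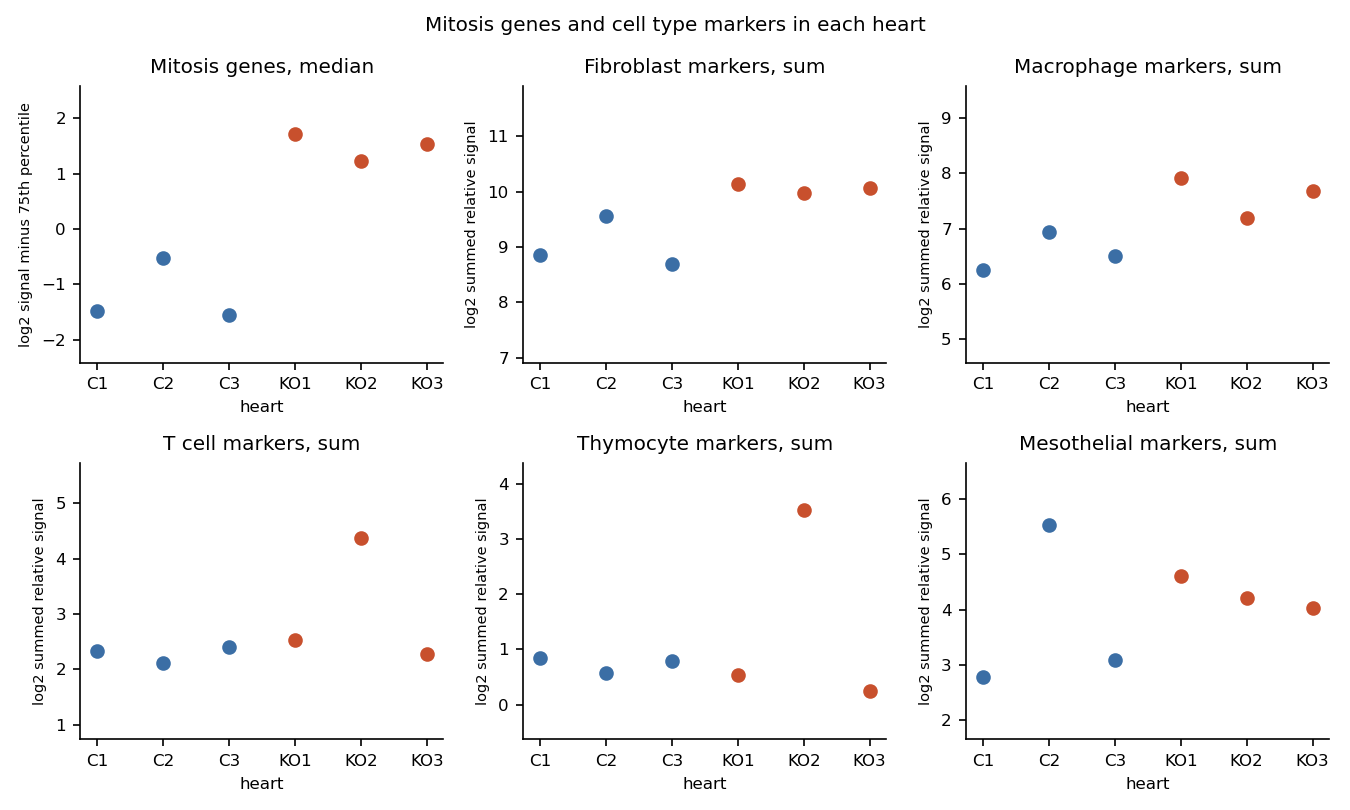
Median log2 signal of the 45 tested mitosis genes and log2 of the summed signal of 5 marker lists (relative to the 75th percentile) in each heart, control hearts in blue and KO-labelled hearts in red, 1 point a heart, with panels on separate scales of equal span. Control 2 is the highest control for the mitosis, fibroblast, macrophage and mesothelial panels, and the T cell and thymocyte panels stand out only in KO 2.

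Promoters were read because these genes moved together. The CHR (cell cycle genes homology region) and the CCAAT box are promoter elements known from many genes expressed late in the cell cycle. RefSeq promoters, build GRCm38.p6, covering 250 bases before to 50 after each gene's start, were matched for 41 of the 51 genes, 46 promoters in all, and searched on both strands. A CHR, spelled TTTGAA or TTCGAA, stood in 73.9% of these promoters against 19.2% of all 32851 promoters in the table. A CCAAT box stood in 76.1% against 37.4%, and both elements together in 65.2% against 7.52%. The E2F motifs TTTCCCGC and TTTGGCGC were in 4.35% against 1.56%, and the HIF core motifs ACGTG and GCGTG in 67.4% against 43.8%. The promoters of these genes had a median GC content of 59% against 52.7% for all, and CCAAT and its reverse complement can overlap. Of 27 DNA replication genes with a promoter, 32 promoters in all, 21.9% had a CHR, 68.8% a CCAAT box and 31.2% an E2F motif.

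The 4 promoters below belong to called genes of 4 different roles, those with the smallest p among the genes that hold both elements, and show where the elements lie. They are Cdk1 (chr10:69352883-69353162, minus strand), Mki67 (chr7:135716350-135716629, minus strand), Racgap1 (chr15:99651627-99651906, minus strand) and Ube2c (chr2:164769679-164769958, plus strand). Each is printed 5′ to 3′ along the gene, from 250 bases before to 30 after the start, with every CHR and CCAAT box, on either strand, in capitals.
Cdk1: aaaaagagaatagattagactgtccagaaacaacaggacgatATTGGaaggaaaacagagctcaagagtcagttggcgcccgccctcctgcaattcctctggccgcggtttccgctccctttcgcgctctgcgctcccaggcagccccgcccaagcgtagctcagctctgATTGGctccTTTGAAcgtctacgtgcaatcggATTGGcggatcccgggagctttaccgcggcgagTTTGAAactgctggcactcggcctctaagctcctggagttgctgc
Mki67: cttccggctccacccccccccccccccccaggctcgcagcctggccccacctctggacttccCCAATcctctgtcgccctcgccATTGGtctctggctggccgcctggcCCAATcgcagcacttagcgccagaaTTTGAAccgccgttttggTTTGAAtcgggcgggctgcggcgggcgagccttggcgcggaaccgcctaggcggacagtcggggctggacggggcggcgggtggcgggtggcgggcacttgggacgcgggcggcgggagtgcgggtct
Racgap1: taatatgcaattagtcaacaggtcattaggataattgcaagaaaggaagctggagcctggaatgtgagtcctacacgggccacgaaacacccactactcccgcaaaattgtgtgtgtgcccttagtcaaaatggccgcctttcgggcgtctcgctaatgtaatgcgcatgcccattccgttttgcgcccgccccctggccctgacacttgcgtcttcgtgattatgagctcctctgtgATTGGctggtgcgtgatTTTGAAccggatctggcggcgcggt
Ube2c: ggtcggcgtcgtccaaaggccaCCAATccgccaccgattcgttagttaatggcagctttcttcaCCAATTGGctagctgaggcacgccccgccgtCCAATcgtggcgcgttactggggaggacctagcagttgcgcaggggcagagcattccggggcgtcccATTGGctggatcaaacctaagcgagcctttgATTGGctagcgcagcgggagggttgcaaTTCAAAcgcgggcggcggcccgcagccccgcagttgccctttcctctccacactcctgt
The CHR copies began 71 and 15 bases before the start in Cdk1, 116 and 98 before in Mki67 and 29 before in Ube2c, and 5 after it in Racgap1. The 3 CCAAT boxes of Cdk1 and of Mki67, the 6 of Ube2c and the 1 of Racgap1 lay upstream of the start. These matches describe the letters only: Bub3 and Cenpa, which were not called, also hold both elements.

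The mitotic entry genes were all higher, 8 of 8 tested, with a median difference of 3.04. Of these 8, 2 entered the test only through the KO-labelled group, and 6 of 6 measured on all 6 arrays were higher. Counts by role, here and below, stand beside 16.1% called higher of all features tested and 15.0% of those measured on all 6 arrays. Ccna2 (NM_009828), cyclin A2, which partners cyclin-dependent kinases from S phase into early mitosis, had log2 signals of -1.19, -0.05 and -0.77 in control and 2.42, 2.16 and 2.63 in KO-labelled hearts. Ccnb1 (NM_172301), cyclin B1, the activating partner of CDK1, had -1.78, -0.33 and -2.03 in control and 2.12, 1.52 and 1.88 in KO-labelled hearts. Ccnb2 (NM_007630), the related cyclin B2, had -0.30, 1.06 and 0.08 in control and 3.46, 2.92 and 3.38 in KO-labelled hearts. In each cyclin the KO-labelled hearts lay together, well clear of a more scattered control group in which control 2 was the highest. Ccna2 rose by 3.07 ± 0.30 (SE, 8.39-fold, adjusted p = 0.00219), Ccnb1 by 3.22 ± 0.45 (SE, 9.29-fold, adjusted p = 0.00415) and Ccnb2 by 2.97 ± 0.36 (SE, 7.86-fold, adjusted p = 0.00315). Foxm1 (NM_008021), a transcription factor that drives genes of the G2 phase and mitosis, had -1.66, -1.30 and -2.0 in control and 0.38, 0.52 and 0.49 in KO-labelled hearts, and rose by 2.12 ± 0.19 (SE, 4.34-fold, adjusted p = 0.00186).

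Cdk1 (NM_007659), the kinase that these cyclins activate, could be measured only in KO-labelled hearts. Its brightest probe gave -5.18, -5.48 and -5.15 in control and -2.70, -2.87 and -2.30 in KO-labelled hearts, and it was not well above background in any control. Its mean was -5.27 in control and -2.62 in KO-labelled hearts, a measured difference of 2.65 (adjusted p = 0.00126 from limma). Against the floor set by the dimmest measurable probe of each array the gene was 2.03-fold higher, and that p does not belong to this fold. Neither of its 2 other probes was well above background in any heart, and they differed by 0.44 and -0.41, so nothing on Cdk1 is taken from them. With normexp background correction the difference was 0.32 and not called (adjusted p = 0.0798). Melk, a kinase that is most abundant in dividing cells, had -4.26, -2.48 and -3.02 in control and 0.33, -0.03 and 0.53 in KO-labelled hearts. It was well above background in 1 of 3 controls and rose by 3.53 ± 0.44 (SE, 11.6-fold, adjusted p = 0.00338), a difference that was 1.53 with normexp and 2.37 with the deposited value table. Plk1, the polo-like kinase that acts from entry to cytokinesis, rose by 3.30 ± 0.40 (SE, 9.86-fold, adjusted p = 0.00323) and Cdca3, which helps degrade the mitotic inhibitor WEE1, by 3.02 ± 0.37 (SE, 8.10-fold, adjusted p = 0.00323). Cdc25c, the phosphatase that activates CDK1, was well above background in 2 KO-labelled hearts and no control and was not tested (difference 1.88).

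**Figure D3:**
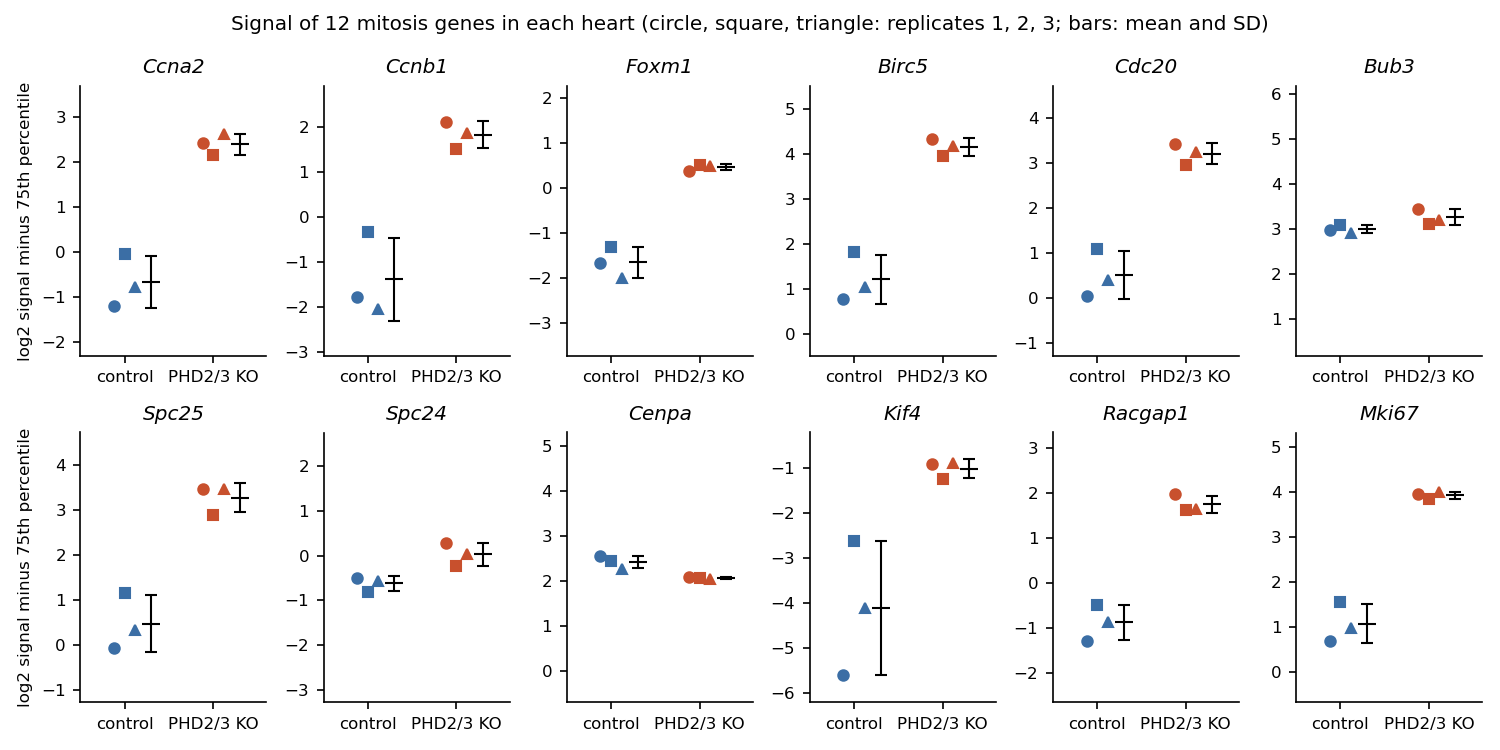
Log2 signal minus the array's 75th percentile of 12 mitosis genes in each heart (circle, square and triangle for replicates 1, 2 and 3), with the mean and SD of each group and separate scales of equal span. The groups stand far apart in 9 genes; Bub3, Spc24 and Cenpa lie close together, with Cenpa lower in KO-labelled hearts.

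The Aurora kinases and the chromosomal passenger complex, which corrects faulty attachments and later guides the cleavage furrow, had 5 of 5 tested genes higher, all of them measured on all 6 arrays. Birc5 (NM_001012273), which encodes survivin, had 0.78, 1.83 and 1.06 in control and 4.34, 3.95 and 4.18 in KO-labelled hearts. Cdca8 (NM_026560), which encodes borealin, had -0.41, 0.68 and -0.03 in control and 3.15, 2.76 and 3.18 in KO-labelled hearts. Incenp (NM_016692), the scaffold that binds the Aurora kinase, had 1.45, 1.91 and 1.82 in control and 3.58, 3.53 and 3.54 in KO-labelled hearts. Incenp had the tightest KO-labelled hearts and the smallest rise of these genes. Birc5 rose by 2.94 ± 0.28 (SE, 7.66-fold, adjusted p = 0.00214), Cdca8 by 2.95 ± 0.29 (SE, 7.73-fold, adjusted p = 0.00221) and Incenp by 1.82 ± 0.15 (SE, 3.54-fold, adjusted p = 0.00155). The kinase of this complex, Aurkb, was not well above background on any array and was not tested, so the complex was seen through 3 of its 4 subunits. Aurka, the Aurora kinase of the spindle poles, rose by 2.68 ± 0.30 (SE, 6.40-fold, adjusted p = 0.00267). Tpx2 (NM_028109), which activates Aurora A on spindle microtubules, had -2.88, -1.54 and -2.12 in control and 1.30, 0.90 and 1.22 in KO-labelled hearts, and rose by 3.32 ± 0.33 (SE, 9.98-fold, adjusted p = 0.00225).

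The spindle checkpoint and its target had 5 of 6 tested genes higher, with a median difference of 2.60 over the 6. Among those measured on all 6 arrays 3 of 4 were higher, with a median of 2.08. Cdc20 (NM_023223), the activator of the anaphase-promoting complex that the checkpoint holds back, had 0.03, 1.08 and 0.40 in control and 3.42, 2.95 and 3.25 in KO-labelled hearts. Ube2c (NM_026785), the ubiquitin-conjugating enzyme that works with that complex, had -0.47, 0.30 and -0.46 in control and 2.43, 2.08 and 2.34 in KO-labelled hearts. Mad2l1 (NM_019499), the checkpoint protein that binds CDC20, had -0.33, 0.04 and -0.10 in control and 1.65, 1.30 and 1.67 in KO-labelled hearts. The groups were far apart in all 3 genes, with rises of 2.70 ± 0.28 (SE, 6.51-fold, adjusted p = 0.00239) in Cdc20, 2.49 ± 0.24 (SE, 5.63-fold, adjusted p = 0.00216) in Ube2c and 1.67 ± 0.16 (SE, 3.19-fold, adjusted p = 0.00219) in Mad2l1. Bub1b (NM_009773), which encodes the checkpoint protein BUBR1, had -3.14, -2.56 and -3.76 in control and -0.32, -0.50 and -0.45 in KO-labelled hearts; it was well above background in 2 of 3 controls and rose by 2.73 ± 0.29 (SE, 6.64-fold, adjusted p = 0.00243). Bub1, the checkpoint kinase, was above background in 1 control and rose by 3.28 ± 0.37 (SE, 9.72-fold, adjusted p = 0.00285), a difference that was 1.65 with the deposited value table and 1.24 with normexp. Bub3, which recruits BUB1 and BUBR1 to kinetochores, was the exception, at 2.99, 3.1 and 2.92 in control and 3.46, 3.13 and 3.21 in KO-labelled hearts. Its groups did not overlap, yet the difference of 0.26 ± 0.13 (SE) was not called (adjusted p = 0.158). It was 0.50 with spike-in scaling and 0.17 without KO replicate 1, both not called, and it was called with array weights (0.26, adjusted p = 0.0148). Ttk, the kinase MPS1 that starts the checkpoint, was not well above background on any array.

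At the centromere and kinetochore 7 of 8 tested genes were higher, with a median difference of 2.54 over the 8. Among those measured on all 6 arrays 4 of 5 were higher, with a median of 2.63. This role also held the only tested gene with a lower mean. Cenpe (NM_173762), a kinesin that moves chromosomes to the spindle equator, had -1.08, 0.48 and -0.75 in control and 2.82, 2.36 and 2.54 in KO-labelled hearts. Spc25 (NM_001199123), a subunit of the NDC80 complex, had -0.07, 1.16 and 0.33 in control and 3.45, 2.90 and 3.47 in KO-labelled hearts. Cenpk (NM_021790), of the inner kinetochore, had -2.66, -1.44 and -2.0 in control and 0.73, 0.48 and 0.56 in KO-labelled hearts. None of the 3 overlapped between groups, and the rises were 3.02 ± 0.40 (SE, 8.12-fold, adjusted p = 0.00373) in Cenpe, 2.80 ± 0.33 (SE, 6.97-fold, adjusted p = 0.00315) in Spc25 and 2.63 ± 0.30 (SE, 6.18-fold, adjusted p = 0.00278) in Cenpk. Cenpn, which reads the centromeric nucleosome, was above background in 1 control and rose by 2.45 ± 0.44 (SE, 5.45-fold, adjusted p = 0.00784). Cenpa (NM_007681), the histone variant that marks the centromere, had 2.54, 2.45 and 2.27 in control and 2.08, 2.05 and 2.04 in KO-labelled hearts. All 3 KO-labelled hearts lay below all 3 controls by a difference of -0.36 ± 0.12 (SE), which missed the threshold (adjusted p = 0.0506). It was -0.13 with spike-in scaling (adjusted p = 0.585) and -0.24 with cyclic loess scaling (adjusted p = 0.142). Under 5 of 20 alternatives Cenpa was called lower, among them the fit of only genes measured on all 6 arrays (adjusted p = 0.0455). Cenpf was not well above background on any array.

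The 4 subunits of the NDC80 complex, the microtubule clamp of the kinetochore, differed in size of change. Ndc80 had -3.68, -2.74 and -2.92 in control and -1.48, -1.57 and -1.19 in KO-labelled hearts, was above background in 2 controls and rose by 1.70 ± 0.26 (SE, 3.25-fold, adjusted p = 0.00512). Nuf2 was above background in 1 control and rose by 3.26 ± 0.56 (SE, 9.59-fold, adjusted p = 0.00687), a difference that was 2.07 with the deposited value table and 1.25 with normexp. Spc24 had -0.50, -0.81 and -0.56 in control and 0.27, -0.23 and 0.04 in KO-labelled hearts, and its rise of 0.65 ± 0.17 (SE, 1.57-fold, adjusted p = 0.0246) was the smallest of the 43. Its call did not hold in 7 of 20 alternatives: without control replicates 1, 2 or 3 (adjusted p = 0.0606, 0.0523 and 0.0701), without KO replicates 1 or 3 (0.0585 and 0.0743), without the filter on dim probes (0.0823) and at an adjusted p of 0.01.

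The spindle motors were dim in control hearts. All 4 tested genes of this role were higher, with a median difference of 2.72, but 3 of them entered the test only through the KO-labelled group. Nusap1 (NM_133851), which bundles spindle microtubules, was measured in every heart at -2.13, -1.11 and -1.81 in control and 0.97, 0.80 and 0.95 in KO-labelled hearts, and rose by 2.59 ± 0.26 (SE, 6.02-fold, adjusted p = 0.00225). Kif11 (NM_010615), the motor that pushes the spindle poles apart, had -3.84, -3.65 and -4.75 in control and -1.44, -1.30 and -1.21 in KO-labelled hearts and was above background in 1 control. Kif2c (NM_134471), which takes microtubules apart at the centromere, had -4.92, -3.80 and -5.48 in control and -1.67, -2.64 and -1.85 in KO-labelled hearts, also with 1 control above background. Kif4 (NM_008446), a motor of the chromosome arms and the midzone, had -5.62, -2.63 and -4.11 in control and -0.91, -1.25 and -0.89 in KO-labelled hearts, again with 1. The control values of Kif4 spread most of the 3. Kif11 rose by 2.77 ± 0.29 (SE, 6.80-fold, adjusted p = 0.0024), Kif2c by 2.68 ± 0.46 (SE, 6.39-fold, adjusted p = 0.007) and Kif4 by 3.1 ± 0.68 (SE, 8.58-fold, adjusted p = 0.0148). Without control replicate 3 Kif4 was not called (difference 3.1, adjusted p = 0.0516), and its difference was 2.35 without control replicate 1 and 3.85 without control replicate 2. It was 1.71 with the deposited value table and 0.92 with normexp. Plk4, the kinase that starts centriole duplication, was above background in 1 KO-labelled heart and was not tested.

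All 6 cytokinesis genes were tested and all were higher, with a median difference of 2.88. The 5 of them measured on all 6 arrays had a median of 2.90. Prc1 (NM_145150), which bundles the antiparallel microtubules of the midzone, had -0.39, 1.00 and 0.12 in control and 3.53, 3.27 and 3.58 in KO-labelled hearts. Racgap1 (NM_012025), the GTPase-activating subunit of centralspindlin, had -1.29, -0.50 and -0.87 in control and 1.96, 1.62 and 1.64 in KO-labelled hearts. Ect2 (NM_007900), the exchange factor that activates RhoA at the furrow, had -2.66, -1.85 and -2.79 in control and 0.61, 0.21 and 0.46 in KO-labelled hearts. In all 3 the KO-labelled hearts lay close together above every control, and the rises were 3.21 ± 0.34 (SE, 9.27-fold, adjusted p = 0.00243) in Prc1, 2.62 ± 0.22 (SE, 6.16-fold, adjusted p = 0.00165) in Racgap1 and 2.86 ± 0.27 (SE, 7.24-fold, adjusted p = 0.0021) in Ect2. Kif23 (NM_024245), the motor subunit of centralspindlin, had -4.06, -3.02 and -3.68 in control and -0.78, -0.94 and -0.88 in KO-labelled hearts, with 1 control above background, and rose by 2.72 ± 0.26 (SE, 6.58-fold, adjusted p = 0.00214). Kif20a, a midzone kinesin, rose by 2.90 ± 0.36 (SE, 7.46-fold, adjusted p = 0.0033) and Anln, the scaffold anillin of the contractile ring, by 2.95 ± 0.41 (SE, 7.72-fold, adjusted p = 0.0043).

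**Figure D4:**
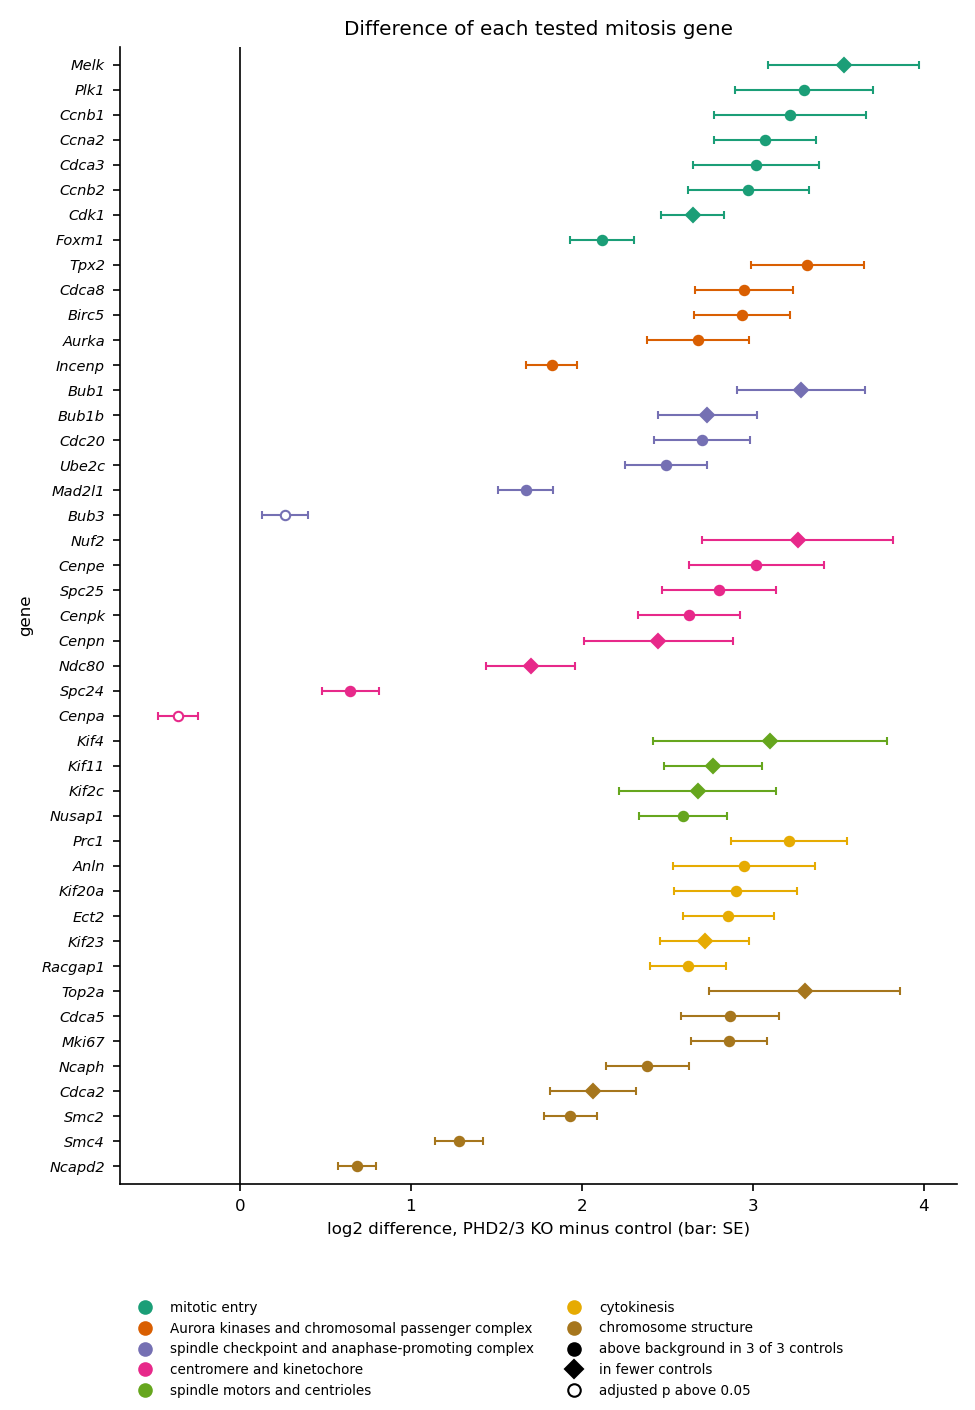
Log2 difference, KO-labelled minus control, of each of the 45 tested mitosis genes with its SE, coloured by role; diamonds are genes well above background in fewer than 3 controls and open circles are not called. Most genes lie between 2 and 4, Ncapd2, Spc24 and Bub3 lie between 0 and 1, and Cenpa alone lies below it.

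In chromosome structure 8 of 8 tested genes were higher, with a median difference of 2.23 over the 8. The 6 of them measured on all 6 arrays had a median of 2.16. Mki67 (NM_001081117), the Ki-67 protein that coats mitotic chromosomes and is the common marker of proliferation, had 0.70, 1.54 and 0.97 in control and 3.95, 3.85 and 4.0 in KO-labelled hearts. Cdca5 (NM_026410), which encodes sororin, a protein that holds sister chromatids together, had -2.06, -0.88 and -1.59 in control and 1.40, 1.24 and 1.43 in KO-labelled hearts. Top2a (NM_011623), the topoisomerase that untangles sister chromatids, had -3.69, -1.45 and -3.39 in control and 0.51, 0.31 and 0.56 in KO-labelled hearts, with 1 control above background. Mki67 was measured in every heart and separated the groups widely, by 2.86 ± 0.22 (SE, 7.25-fold, adjusted p = 0.00135). Cdca5 rose by 2.87 ± 0.29 (SE, 7.29-fold, adjusted p = 0.00226) and Top2a by 3.30 ± 0.56 (SE, 9.88-fold, adjusted p = 0.00672), the latter with a difference of 4.0 without control replicate 2, 1.91 with the deposited value table and 1.57 with normexp. Cdca2, which brings a phosphatase to chromosomes as mitosis ends, was above background in 2 controls and rose by 2.07 ± 0.25 (SE, 4.19-fold, adjusted p = 0.00319).

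Condensin, the ring that compacts mitotic chromosomes, changed by unequal amounts. Smc2 (NM_008017), an ATPase arm shared by both condensins, had -1.0, -0.53 and -0.82 in control and 1.17, 1.02 and 1.27 in KO-labelled hearts. Ncaph (NM_144818), the closing subunit of condensin I, had -0.84, 0.10 and -0.56 in control and 1.89, 1.89 and 2.07 in KO-labelled hearts. Ncapd2 (NM_146171), another subunit of condensin I, had 2.70, 2.71 and 2.63 in control and 3.26, 3.43 and 3.40 in KO-labelled hearts. Ncaph rose by 2.38 ± 0.24 (SE, 5.22-fold, adjusted p = 0.00233), Smc2 by 1.93 ± 0.16 (SE, 3.82-fold, adjusted p = 0.00144) and Smc4, the other ATPase arm, by 1.28 ± 0.14 (SE, 2.43-fold, adjusted p = 0.0026). Ncapd2 rose by only 0.68 ± 0.11 (SE, 1.61-fold, adjusted p = 0.00595), a small step between tight groups. Ncapg was not well above background on any array.

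Unequal change within complexes is described in 7 pairs of subunits, chosen after their values were seen and so given with no test. The measure was the log2 ratio of one gene's signal to the other's within an array, which shows unequal change between groups and nothing on the amounts. Spc25 relative to Spc24 was higher by 2.15, with ratios of 0.43, 1.97 and 0.89 in control and 3.19, 3.13 and 3.43 in KO-labelled hearts. Bub1b relative to Bub3 was higher by 2.47, Ncaph relative to Ncapd2 by 1.70, Nuf2 relative to Ndc80 by 1.56, Birc5 relative to Incenp by 1.11 and Smc2 relative to Smc4 by 0.65. In these 6 pairs the groups did not overlap. Kif23 relative to Racgap1 overlapped between groups, with a difference of 0.10. With normexp the changes were 0.79 for Nuf2 and Ndc80, 1.12 for Ncaph and Ncapd2, 0.19 for Smc2 and Smc4 and 1.01 for Bub1b and Bub3, and that of Kif23 and Racgap1 was -1.11. With the deposited value table that of Nuf2 and Ndc80 was 0.65.

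Of the 51 genes, 14 had more than 1 probe, and only Cdk1 had probes of opposite sign. The second Nuf2 probe was above background in KO 3 only. It gave -5.76, -5.45 and 0.02 in KO-labelled hearts, so its difference of 1.82 rests on 1 heart and says nothing on agreement. The 2 Racgap1 probes differed between groups by 2.62 and 2.67 and the 2 Mki67 probes by 2.86 and 2.88, while the 3 Birc5 probes ranged from 2.11 to 3.24. For 40 of the 43 genes the call held under every alternative they could be run in; Cdk1, Kif4 and Spc24 were the other 3.

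Genes of the same pathway that are not among the 51 were read in the same fit. A list of 69 further mitosis genes had 68 with a probe and 63 tested. Of the 63, 52 were higher and 1 was lower, against 16.1% and 23.0% of all features. Of the 63, 24 entered only through the KO-labelled group, so they add no support. The median difference was 2.01, or 1.57 with the 10 genes dim in every control set against the floor. Among the 39 measured on all 6 arrays, 28 were higher, against 15.0% of all such features, with a median of 1.35. The genes taken from the list by smallest p included the kinesins Kif18a (2.01-fold against the floor) and Kif18b (3.87-fold against the floor). The outer kinetochore gene Nsl1, taken by the same rule, rose by 2.31 ± 0.17 (SE, 4.97-fold, adjusted p = 0.00126). Kif18a and Kif18b entered the test only through the KO-labelled group and were not well above background in any control. Their p belongs to the measured difference and not to the fold against the floor. Their measured means were -5.49 and -5.36 in control and -2.64 and -1.69 in KO-labelled hearts, with adjusted p of 0.00126 and 0.00129. The gene that was lower was Pttg1, securin, the inhibitor of the protease that parts sister chromatids. It had 6.40, 6.02 and 6.33 in control and 4.83, 5.25 and 5.20 in KO-labelled hearts, a difference of -1.16 ± 0.17 (SE, adjusted p = 0.00477).

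DNA replication genes were higher in 25 of 31 tested and lower in none, against 16.1% higher and 23.0% lower of all features. Their median difference was 1.29. By smallest p these were Uhrf1, which maintains DNA methylation at the fork (2.62), the chromatin assembly subunit Chaf1b (2.27), and the helicase factors Mcm3 (1.86) and Mcm10 (2.11), with adjusted p of 0.00126 to 0.00137. Of the regulators E2F, RB and MuvB, 8 of 19 tested were higher and 4 were lower, with a median of 0.35, beside 16.1% higher and 23.0% lower of all features, so that the share lower was near that of all. The higher ones were led by E2f8 (1.71), Mybl2 (2.54), E2f1 (2.32) and E2f7 (2.14), and the lower ones were Tfdp2 (-1.0), Lin52 (-0.90), E2f6 (-0.78) and the pocket protein gene Rbl2 (-0.76). E2f6 was not called without control replicate 3 (adjusted p = 0.0528), nor Rbl2 with spike-in scaling (adjusted p = 0.116). No test compared the lists with each other, and each holds a different share of genes dim in control hearts.

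**Figure D5:**
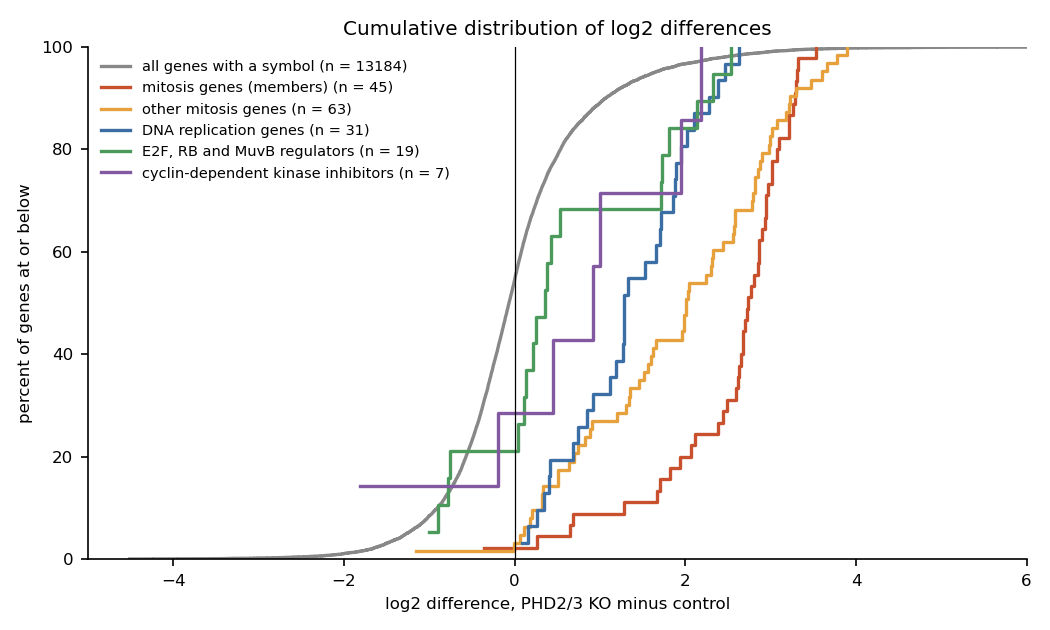
Cumulative share, in percent, of log2 differences (KO-labelled minus control) for the 45 tested mitosis genes, 4 further lists and the 13184 tested genes with a symbol. The curve of all genes crosses 50% near 0, and that of the mitosis genes crosses it near 2.73.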

How the data were processed

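RNA from 3 control and 3 KO-labelled mouse hearts was read on 1 Agilent 1-colour array each, and the 6 scanner files hold spot intensity values on a linear scale. Per the file headers, Agilent Feature Extraction, version 11.0.1.1, made these intensities by background subtraction and removal of spatial trends. The same software set the flags in other deposited columns, which mark spots as well above background, as saturated or as outliers. The table of log2 values that the authors deposited was used as an alternative source only. The submitters' processing notes name R 3.1.3 beside Feature Extraction, and for that table the normalization was not given in the sources used here. In it, 94.9% of array-to-array differences matched those of the scanner's log2 signal up to a constant per array, within 0.001, and 94.2% of probes had a median of 0 over the arrays within 0.001, so it is log2 and centred per probe; its column medians were 0.09, -0.02 and 0.07 for control and -0.04, -0.05 and -0.02 for KO-labelled arrays (25781 probes compared).

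Outlier spots were left out, spots of a probe were averaged, and each array's 75th percentile (a signal of 147 to 235) was subtracted on the log2 scale. Of 55681 gene probes, 73 had only outlier spots on an array, 55608 were kept, and 26551 of these took a symbol from a RefSeq gene list (GRCm38.p6) by accession. On the arrays 46.29% to 50.94% of probes were well above background and 0 were saturated, and the number of arrays limits the precision. Probes well above background on all arrays of a group were kept, and a gene was represented by its brightest such probe. Differences were tested with limma 3.58.1 in R 4.3.3 (lmFit and eBayes, two-sided, Benjamini-Hochberg over all features), with data.table (version 1.17.8) and, for figures, matplotlib 3.10.9. The test was checked on simulated data with independent noise for each gene and known changes in few genes. The hearts differed in many more genes, so that check does not measure the error rate here. A gene dim on all arrays of a group has a fold against, per array, the lowest signal of any probe well above background or its own signal where that is higher.

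The genes, lists and rules were chosen with earlier results of these data known. The rule for values per heart took, in each role, the 4 called genes with the smallest p, any gene called lower, and Mki67, Top2a, Cdk1 and Ccnb1. From each of the lists (other mitosis genes, DNA replication, E2F, RB and MuvB regulators, cyclin-dependent kinase inhibitors) it took the 4 called genes with the smallest p, of which 1 is not reported here; Bub3, Cenpa, Spc24, Ncapd2, Melk, Pttg1 and other genes were named after their values were seen. Replicate numbers were not taken as pairs, although same-numbered hearts lay in the same column of the slide. Such hearts deviated from their group means with correlations of -0.153, -0.119 and -0.0819. Hearts of different number were not compared, so these values do not settle pairing. Alternatives were normexp background correction (offset 50, on the median spot and background signals because mean signals were not in the files), other scalings, filters, variances, a replicate block, a threshold of 0.01, and each heart left out. Markers of 15 cell types were fixed as lists; those of smooth muscle, activated fibroblasts, B cells, neutrophils, granulocyte precursors, red cells, fat and skeletal muscle are given after the report.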

Additional observations from a re-analysis of the deposited data

How the results depend on the processing

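The count of mitosis genes called higher, 43, was 41 to 44 under 19 of the 20 alternatives and 30 of 32 with only genes measured on all 6 arrays; it was 42 with normexp and 43 with the replicate block. No mitosis gene that was called changed sign under any of these. The count called lower was 0 and became 1, Cenpa, with the deposited table, with genes measured on all 6 arrays, with the mean of a gene's probes, with trend and robust variance and with array weights. The median difference was 2.73 and was 1.63 with normexp, which adds an offset and so compresses dim signals: Mki67 kept 2.73 and Prc1 2.80, while Kif11 went to 0.75 and Kif23 to 0.99. Leaving out a heart moved that median between 2.58 and 3.03, the mitosis genes called higher between 41 and 44 with 0 called lower, the other mitosis genes called higher between 46 and 54, and the features called over the whole array between 3899 and 8691, against 7819. That last count was 4335 with no filter on dim probes, 13800 with array weights, 3091 at 0.01 and 4859 with the replicate block. The block groups same-numbered hearts, which shared a slide column, and does not rest on a known shared animal or litter. Of the other mitosis genes 28 were called with genes measured on all 6 arrays, against 52, since 24 entered through the KO-labelled group only. Among genes not called, Cdkn1b had a difference of -0.19, and of 0.036 with spike-in scaling. Dim control signals limit the folds: 13 of the 45 genes lay near background in at least 1 control.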

Other observations

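Cyclin-dependent kinase inhibitors, which hold the cell cycle back, were read in the same fit, and 5 of 7 were higher in KO-labelled hearts while 1 was lower (16.1% and 23.0% of all features). Cdkn2a, which encodes INK4a and ARF, had -2.72, -1.81 and -2.34 in control and -0.47, -0.37 and -0.17 in KO-labelled hearts, a rise of 1.95 ± 0.24 (SE, 3.86-fold, adjusted p = 0.00323). Cdkn2c rose by 0.92 ± 0.17 (SE, adjusted p = 0.00879). Cdkn1c, which encodes p57, had 3.21, 2.79 and 2.87 in control and 1.1, 1.53 and 0.81 in KO-labelled hearts, a difference of -1.81 ± 0.21 (SE, 3.51-fold lower, adjusted p = 0.00312). Cdkn2b (2.18, adjusted p = 0.0135), Cdkn1a (1.0, adjusted p = 0.0236) and Cdkn2d (0.44, adjusted p = 0.0321) were also called higher. Cdkn2b was not called without control replicate 3 (adjusted p = 0.0522) or with the replicate block (0.0546). Cdkn1a was not called without control replicates 1 or 3 or KO replicates 1 or 3 (adjusted p of 0.0536 to 0.0847), nor when its probes were averaged (0.61, adjusted p = 0.102), with the replicate block (0.0771) or with no filter on dim probes (0.0695). Cdkn2d was called in 1 of the 6 fits that leave out a heart, and not with the replicate block (0.0778) or with no filter on dim probes (0.121).

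Among activated fibroblast markers 5 of 6 were higher, against 16.1% of all features. Cthrc1, above background in 1 control (5.82 ± 1.28, SE, adjusted p = 0.0148), and Postn, the matrix protein periostin (4.63 ± 0.51, SE, adjusted p = 0.00266), rose most. Acta2 went the other way and was not called (-0.41, adjusted p = 0.236). The list summed to 80.87 to 98.01 in control and 105.6 to 168.9 in KO-labelled hearts. Smooth muscle and pericyte markers were mixed, with 3 of 8 higher and 4 lower, beside 16.1% and 23.0% of all features (sums of 91.26 to 94.68 against 139.1 to 202.3). No erythroid, B cell, neutrophil, granulocyte precursor or adipocyte marker was called by limma. The adipocyte sum was 244.8 in KO 2 and 92.35 in control 3 against 3.051 to 16.97 in the other hearts, the B cell sum was 9.109 in KO 2 against 1.427 to 2.519, and the neutrophil marker S100a8 was 3.59 in KO 1 against -2.37 to -0.16 in the others. Of 6 skeletal muscle markers, the myosins Myh1, Myh2 and Myh4 were not well above background in any heart and Actn3 was not tested. Tnnt3, the fast skeletal troponin T, was above background in 2 controls and rose by 5.65 ± 0.43 (SE, adjusted p = 0.00133), while Ckm, the muscle creatine kinase, which the heart also expresses, differed by -2.01 ± 0.41 (SE, adjusted p = 0.0114).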
